A study of Homo sapiens with 6 samples.

Results

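Nucleic acid sensors are the proteins by which a cell detects RNA or DNA that marks infection or damage, and adaptors carry their signal onward. The 10 genes of this kind described here were IFIH1, RIGI (older symbol DDX58), DHX58, TLR3, EIF2AK2, CGAS, STING1, MAVS, IRF3 and IRF7. They were taken by gene identity, whatever their values, from the 40295 identifiers of the deposited table, and all 10 had a row. They were measured by RNA-seq in HDQ-P1, an established human cancer cell line, in 3 libraries of untreated cells and 3 of cells kept for 48 h with Y-320 at 1 μM. Y-320 is a small molecule, tested in the study for its ability to raise the readthrough of premature stop codons that the aminoglycoside G418 induces, and the labels name no G418 treatment in either group here. The comparison asks how the transcriptome differed after Y-320 treatment. No source used here mentions a solvent control, and all libraries come from a single cell line. Nothing in the labels says that replicates were separate cultures, so the p-values measure the spread between these libraries, which may be technical.

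RIG-I (from RIGI) and MDA5 (from IFIH1) are helicases that bind double-stranded RNA in the cytosol and signal through MAVS on the mitochondrial surface, while LGP2 (from DHX58) binds RNA but lacks the signalling domains of RIG-I and MDA5. cGAS binds double-stranded DNA and makes the messenger cGAMP, which activates the adaptor STING on the endoplasmic reticulum. Both routes lead through the kinase TBK1 to IRF3 and IRF7, transcription factors that switch on interferon genes, and secreted interferon acts through the transcription factor complex ISGF3 on a large set of target genes. Many sensors are themselves such targets. TLR3 senses double-stranded RNA from within endosomes and not in the cytosol, and PKR (from EIF2AK2) responds to double-stranded RNA by phosphorylating the translation factor eIF2α.

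The libraries held 21045401 to 22740535 estimated counts, and 16580 genes passed a filter on low counts and were compared by the quasi-likelihood test of edgeR, with p-values adjusted by the Benjamini-Hochberg method. Levels are given as CPM, estimated counts divided by each library's TMM-scaled total and brought to the same depth. A single count was worth 0.0440 to 0.0475 CPM. A value of 0 allows a level of up to 3 counts, or 0.132 to 0.143 CPM, a limit that covers counting error only. Of all genes tested, 26.2% passed an adjusted p of 0.05 as higher with Y-320 and 25.4% as lower. The lowest treated library was above the highest untreated one in 29.8% of genes, and the highest treated one was below the lowest untreated one in 29.4%. Markers of epithelial cells were abundant, their 8 genes summing to 8111 to 8482 CPM in untreated and 4860 to 4927 CPM in treated libraries, with EPCAM higher and the other 7 lower. The 10 immune cell markers summed to 6.85 to 7.30 CPM and to 13.4 to 15.6 CPM, with 2 of the 4 tested higher (CSF1R and ITGAM), none lower, and the B cell marker MS4A1 at 0 in every library. ITGAM had 4, 0 and 2 counts in untreated and 13, 17 and 16 in treated libraries. It passed the filter on low counts only through the treated libraries, so its call is not independent of that filter. The 8 fibroblast and endothelial markers summed to 264.5 to 288.1 CPM and to 139 to 154.8 CPM, with 1 higher and 5 lower. The part of these shifts in the results below was not tested, and in bulk RNA fewer cells expressing a gene and less of its RNA per cell cannot be told apart.

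Of the 10 genes, 9 passed the filter on low counts and were tested. With Y-320, 3 were higher (CGAS, STING1 and MAVS), 3 were lower (RIGI, TLR3 and EIF2AK2) and 3 did not pass the threshold (IFIH1, DHX58 and IRF3). IRF7 was below the filter. Beside the 26.2% and 25.4% of all genes that passed in each direction, these counts are not particular to the sensors and adaptors. The median log2 fold change of the 9 genes was 0.01, and over all genes tested it was 0.00. The 6 genes that passed had a median absolute log2 fold change of 0.28, against 0.33 for all genes that passed. By role, 3 of 5 RNA sensors were lower and 0 were higher, while the DNA sensor and both adaptors were higher.

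**Figure D1:**
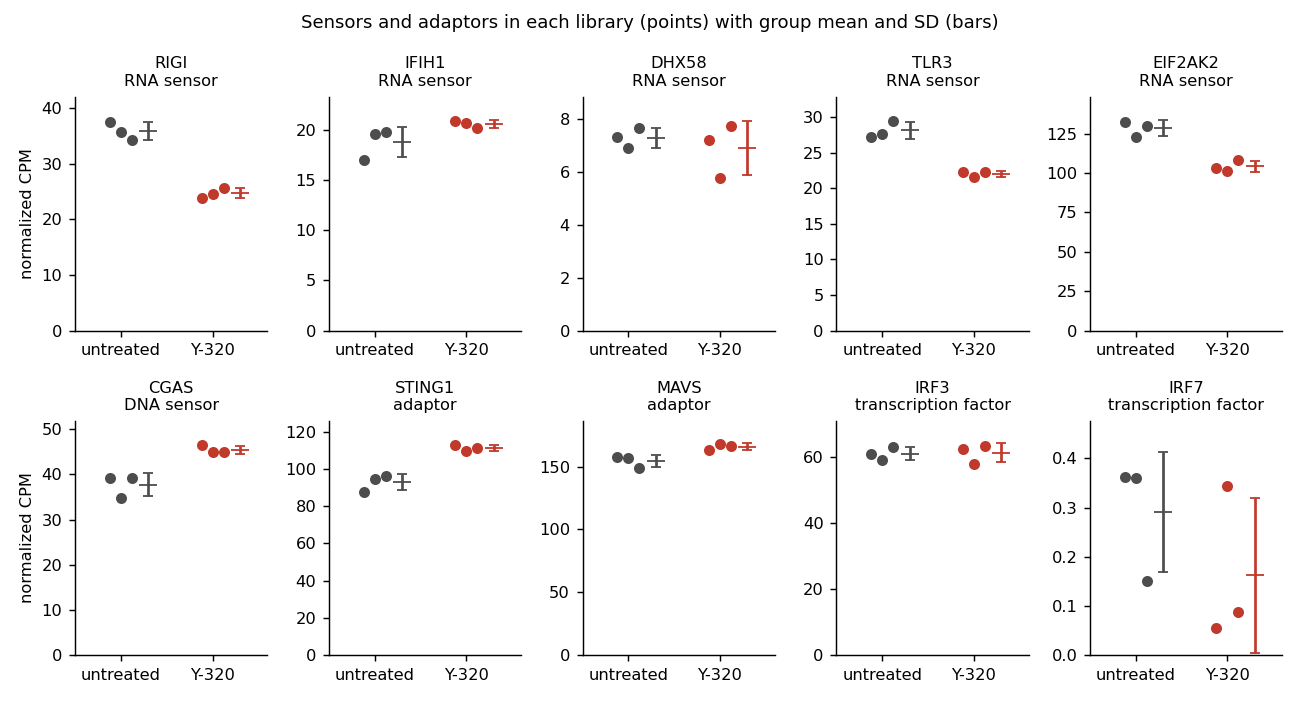
Normalized CPM of each of the 10 sensor and adaptor genes in every library, with untreated and Y-320 libraries as separate points and bars for the mean and SD (n = 3 in each group). The treated points lie below all untreated points for RIGI, TLR3 and EIF2AK2, lie above them for IFIH1, CGAS, STING1 and MAVS, and overlap with them for DHX58, IRF3 and IRF7.

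**Figure D2:**
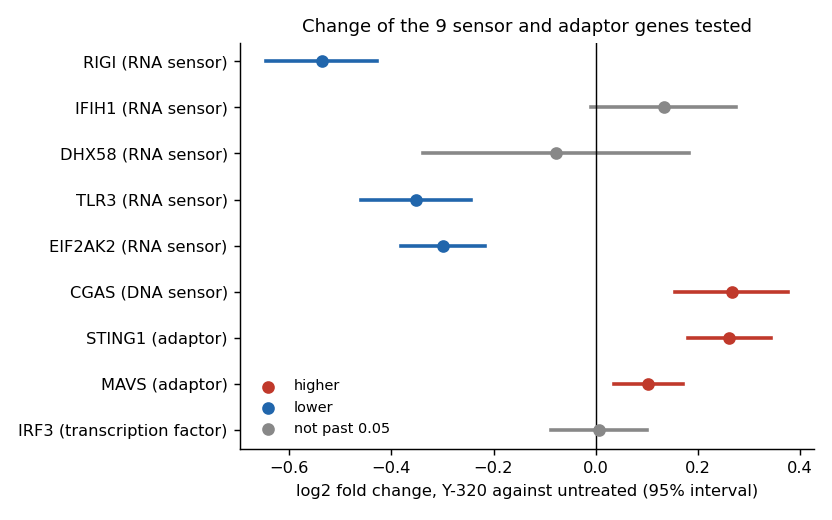
Log2 fold change of the 9 tested genes with Y-320 against untreated cells, each with its 95% interval from edgeR's quasi-likelihood fit. RIGI lies farthest below 0 at -0.54, CGAS and STING1 lie at 0.27 and 0.26, and the intervals of IFIH1, DHX58 and IRF3 include 0.

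RIGI (ENSG00000107201, GENCODE 44 on hg38, chromosome 9, 32455302 to 32526208, minus strand) was measured at 37.6, 35.7 and 34.3 CPM in untreated replicates 1, 2 and 3 and at 23.9, 24.6 and 25.6 CPM in the treated replicates. Every treated library was below every untreated one. The mean fell from 35.8 ± 1.63 to 24.7 ± 0.872 CPM (SD, n = 3), a treated level of 0.690 times the untreated one, with a log2 fold change of -0.54 (SE 0.0489, edgeR adjusted p = 7.24e-06). Leaving out any 1 library kept the log2 fold change between -0.57 and -0.50. Of the 31-base words in RIGI transcripts, 46.0% also occur in another gene. A protein-coding locus on the same strand, ENSG00000288684, shares 43.2% of RIGI's merged exon bases, and no row of that locus was used here, so the counts may hold reads of either locus.

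TLR3 (ENSG00000164342, chromosome 4, 186068911 to 186088073, plus strand), the endosomal sensor, was measured at 27.2, 27.7 and 29.5 CPM in untreated libraries and at 22.3, 21.6 and 22.3 CPM in treated ones. The groups did not overlap, and the spread among treated libraries was small beside the gap. The mean fell from 28.1 ± 1.21 to 22 ± 0.395 CPM (log2 fold change -0.35, SE 0.0483, edgeR adjusted p = 1.43e-04).

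EIF2AK2 (ENSG00000055332, chromosome 2, 37099210 to 37157522, minus strand) encodes the kinase PKR. It was measured at 132.5, 122.7 and 129.9 CPM in untreated libraries and at 103.4, 101.5 and 108.2 CPM in treated ones, again without overlap. The mean fell from 128.3 ± 5.07 to 104.4 ± 3.47 CPM (log2 fold change -0.30, SE 0.0368, edgeR adjusted p = 6.60e-05).

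IFIH1 (ENSG00000115267, chromosome 2, 162267074 to 162318684, minus strand), the gene of MDA5, was measured at 17.0, 19.6 and 19.8 CPM in untreated libraries and at 20.9, 20.7 and 20.2 CPM in treated ones. All treated libraries lay above the untreated ones, but untreated replicate 3 was close below the lowest treated one. The means were 18.8 ± 1.53 and 20.6 ± 0.390 CPM, and the log2 fold change of 0.13 (95% interval -0.01 to 0.28) did not pass the threshold (edgeR adjusted p = 0.109). The exact permutation test gave p = 0.1, the smallest value that 3 against 3 libraries allow.

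DHX58 (ENSG00000108771, chromosome 17, 42101404 to 42112714, minus strand), the gene of LGP2, was low in both groups. Untreated libraries had 7.34, 6.91 and 7.66 CPM, and treated ones had 7.22, 5.77 and 7.76 CPM. The groups overlapped, and treated replicate 2 was the lowest of all. The log2 fold change was -0.08 (95% interval -0.34 to 0.18, edgeR adjusted p = 0.614), and it was 0.04 without treated replicate 2.

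The genes of the RNA helicases that signal through MAVS were also compared by their ratio within each library, a measure chosen after the values were seen. RIGI over IFIH1, as a ratio of CPM, was 2.20, 1.82 and 1.73 in untreated libraries and 1.14, 1.19 and 1.27 in treated ones. The mean ratio was 1.92 ± 0.251 untreated and 1.20 ± 0.0651 treated, without overlap (exact permutation p = 0.1, the smallest possible). RIGI over MAVS went from 0.232 ± 0.00545 to 0.149 ± 0.00439 and RIGI over EIF2AK2 from 0.279 ± 0.0139 to 0.237 ± 0.00577, each with the same exact permutation p of 0.1 and no overlap. Every treated library was below all untreated ones for RIGI and above them for IFIH1 and MAVS. The ratios of RIGI to IFIH1 and to MAVS therefore had to separate with this p, and they add no support to those values.

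CGAS (ENSG00000164430, chromosome 6, 73413515 to 73452297, minus strand), the DNA sensor, was measured at 39.3, 34.7 and 39.3 CPM in untreated libraries and at 46.5, 45.0 and 44.9 CPM in treated ones. The groups did not overlap, and untreated replicate 2 was the lowest. The mean rose from 37.8 ± 2.62 to 45.5 ± 0.903 CPM (log2 fold change 0.27, SE 0.050, edgeR adjusted p = 0.00121). Without 1 library at a time the log2 fold change ran from 0.21 to 0.29.

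STING1 (ENSG00000184584, chromosome 5, 139475533 to 139482935, minus strand), which encodes the adaptor downstream of cGAS, was measured at 88.0, 94.9 and 96.1 CPM in untreated and at 113.2, 109.7 and 111.5 CPM in treated libraries. All treated libraries were higher than all untreated ones. The mean rose from 93.0 ± 4.40 to 111.5 ± 1.74 CPM (log2 fold change 0.26, SE 0.0366, edgeR adjusted p = 1.59e-04). The ratio of CGAS to STING1 in CPM, also chosen after the values were seen, was 0.407 ± 0.0401 untreated and 0.408 ± 0.00468 treated, and the groups overlapped (exact permutation p = 0.8).

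MAVS (ENSG00000088888, chromosome 20, 3846799 to 3876123, plus strand), the adaptor of RIG-I and MDA5, was measured at 158.0, 157.2 and 148.7 CPM in untreated and at 163.5, 168.3 and 166.6 CPM in treated libraries. The groups did not overlap, but the gap was narrow beside the low value of untreated replicate 3. The mean rose from 154.7 ± 5.17 to 166.1 ± 2.41 CPM (log2 fold change 0.10, SE 0.0304, edgeR adjusted p = 0.0159). This call was lost with upper-quartile scaling (edgeR adjusted p = 0.0584), without untreated replicate 3 (0.0724) and without treated replicate 2 (0.0589), and over all 14 alternatives the adjusted p ran from 0.00870 to 0.0724.

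IRF3 (ENSG00000126456, chromosome 19, 49659569 to 49665875, minus strand) was measured at 61.0, 58.9 and 62.9 CPM in untreated and at 62.3, 57.9 and 63.4 CPM in treated libraries. The groups overlapped along nearly their whole range. The log2 fold change was 0.01 (95% interval -0.09 to 0.10, edgeR adjusted p = 0.909). BCL2L12 lies on the opposite strand and covers 19.4% of IRF3's merged exon bases. The strand setting of the counting is not given in the sources used here, so reads of the 2 genes may not be told apart there, and BCL2L12 itself had a log2 fold change of -0.20 (edgeR adjusted p = 0.0260).

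IRF7 (ENSG00000185507, chromosome 11, 612553 to 615983, minus strand) was at the edge of detection. It had 8, 7.50 and 3.30 estimated counts in untreated libraries and 1.24, 7.49 and 1.95 in treated ones, and the groups overlapped (exact permutation p = 0.2). It was not tested in the main comparison, and with no filter on low counts its log2 fold change was -0.86 (edgeR adjusted p = 0.437). At this depth no difference in IRF7 was detectable.

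Levels were compared between genes only per length, as CPM per kilobase of the longest annotated transcript. In untreated cells the order ran from STING1 (29.1 ± 1.38) through IRF3 (21.2 ± 0.692), MAVS (13.2 ± 0.441), EIF2AK2 (12.7 ± 0.502), CGAS (11.8 ± 0.818), RIGI (7.22 ± 0.330), IFIH1 (5.06 ± 0.413), TLR3 (4.67 ± 0.201) and DHX58 (2.82 ± 0.146) to IRF7 (0.142 ± 0.0596), each as mean ± SD with n = 3. MAVS and EIF2AK2, EIF2AK2 and CGAS, and IFIH1 and TLR3 overlapped between libraries, so the order within these pairs was not resolved. The adaptors and IRF3 therefore stood above the RNA helicases, and IRF7 was the lowest of the 10 genes. In treated cells CGAS (14.2 ± 0.282) and MAVS (14.2 ± 0.205) overlapped and both stood above EIF2AK2 (10.3 ± 0.343), while IFIH1 (5.55 ± 0.105) stood above RIGI (4.98 ± 0.176) without overlap. The place of RIGI depends on the length used. With all merged exons as length, the untreated levels of RIGI, IFIH1 and TLR3 were 3.46, 3.60 and 3.75 CPM per kilobase, and their libraries overlapped, so the order of these 3 genes was not resolved with that length.

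**Figure D3:**
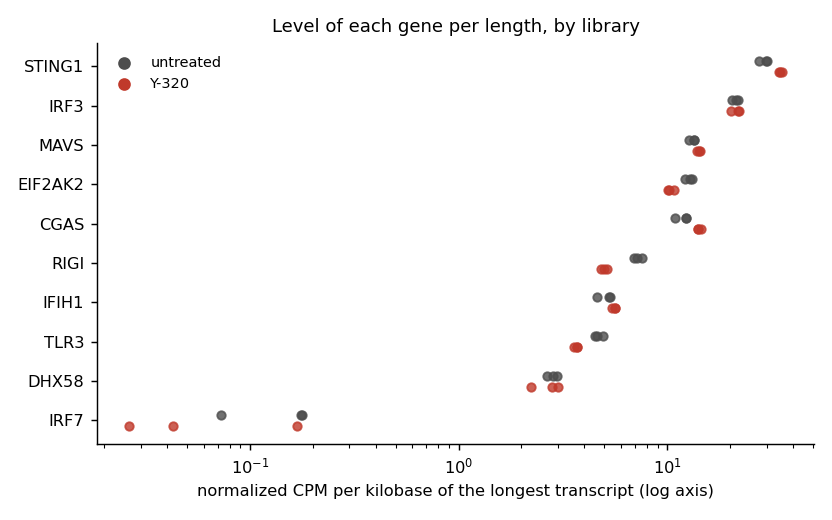
Level of the 10 genes as CPM per kilobase of the longest annotated transcript, on a log axis, with each library as a point for untreated and Y-320 groups (n = 3 in each). STING1 was highest at 29.1 untreated and 34.8 treated, IRF7 lowest at 0.142 and 0.0789, and RIGI stood above IFIH1 in untreated and below it in treated libraries, an order that with merged exons as length is not seen in untreated cells.

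Interferon-responsive promoters carry binding sites for IRF and ISGF3 factors. Promoter sequence from RefSeq (GRCh38.p14, from 250 bases before the start of transcription to 50 after it) was given for 5 of the 10 genes, namely RIGI, IFIH1, TLR3, EIF2AK2 and MAVS. CGAS, STING1, DHX58, IRF3 and IRF7 had no entry. On both strands, 2 words were searched, the IRF word AANNGAAA and the longer core of the interferon-stimulated response element, GAAANNGAAA, which always contains an IRF word. Of all 35116 promoters, 22.8% held the IRF word and 3.57% held the longer core. Among the 5 genes, 4 held the IRF word, all but MAVS, and 3 held the longer core, namely IFIH1, TLR3 and EIF2AK2. A match of letters is a description and not a bound site.

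The stretches with these words are shown for the RNA sensors, the role with the lower genes. RIGI, TLR3 and EIF2AK2 were shown because their fold changes were among the 4 largest of the called genes (CGAS, the other, had no entry), and IFIH1 was added for contrast after its values were seen. The stretches lie at chr9:32526187-32526406 on the minus strand for RIGI, chr4:186069096-186069165 on the plus strand for TLR3, chr2:37156971-37157040 on the minus strand for EIF2AK2 and chr2:162318675-162318854 on the minus strand for IFIH1. Each runs 5′ to 3′ on the gene's strand and ends 10 bases after the start, and capitals mark the bases of matched words on either strand.
RIGI: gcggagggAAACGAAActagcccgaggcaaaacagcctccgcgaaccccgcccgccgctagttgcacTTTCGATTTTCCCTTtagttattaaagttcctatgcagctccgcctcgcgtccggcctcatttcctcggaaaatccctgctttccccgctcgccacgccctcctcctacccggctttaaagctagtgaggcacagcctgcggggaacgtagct
TLR3: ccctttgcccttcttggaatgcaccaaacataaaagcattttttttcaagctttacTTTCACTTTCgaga
EIF2AK2: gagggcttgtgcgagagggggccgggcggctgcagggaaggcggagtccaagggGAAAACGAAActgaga
IFIH1: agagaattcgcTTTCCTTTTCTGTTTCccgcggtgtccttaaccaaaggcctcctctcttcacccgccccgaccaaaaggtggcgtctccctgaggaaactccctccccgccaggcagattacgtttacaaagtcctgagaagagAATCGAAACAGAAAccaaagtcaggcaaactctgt
In RIGI the matched words began 202, 143 and 136 bases before the start, and none of them was the longer core. TLR3 and EIF2AK2 each had a single longer core that straddles the start of transcription. IFIH1 had overlapping matches to the longer core 159 and 153 bases before the start and a further match 21 bases before it. A longer core was thus present in the promoters of TLR3 and EIF2AK2, which were lower with Y-320, and of IFIH1, which did not pass the threshold, and it was not among the letters of RIGI, the gene that fell most among the 9 tested.

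The other genes of the pathway were taken from 9 lists, counted in the same comparison as the sensors. These lists were written with earlier results of these data known. Their counts are to be read beside the 26.2% of all genes tested that were higher and the 25.4% that were lower. Counts near those shares are not particular to a list. Among 17 kinases and adaptors downstream of the sensors, 9 were higher, 5 were lower and 3 did not pass, with a median log2 fold change of 0.14. TICAM1, the adaptor of TLR3 (also called TRIF), rose from 10.1 ± 0.447 to 15.9 ± 1.00 CPM (log2 fold change 0.65, edgeR adjusted p = 3.13e-05) while TLR3 itself fell. TBK1, the kinase shared by the RNA and DNA routes, fell from 40.3 ± 2.14 to 33.2 ± 1.42 CPM (log2 fold change -0.28, edgeR adjusted p = 8.48e-04). IKBKE, the TBK1-related kinase, rose from 10.8 ± 0.664 to 12.7 ± 1.06 CPM (log2 fold change 0.24, edgeR adjusted p = 0.0335), a call that 6 alternatives lost. TRAF3, a ubiquitin ligase that recruits these kinases, had a log2 fold change of 0.27 (edgeR adjusted p = 1.78e-04).

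Of 13 ubiquitin ligases and cofactors that activate the sensors, 12 were tested, 4 were higher and 5 lower, with a median log2 fold change of 0.04. TRIM25, a ligase that activates RIG-I, was at 149.5 and 157.7 CPM in untreated and treated cells and did not pass (log2 fold change 0.08, edgeR adjusted p = 0.106). Of 18 negative regulators of sensor signalling, 8 were higher and 1 was lower, with a median of 0.19. TNFAIP3, which encodes the ubiquitin-editing enzyme A20 and is also an NF-κB target, rose from 15.9 ± 0.860 to 66.9 ± 2.35 CPM (log2 fold change 2.07, edgeR adjusted p = 7.66e-10). NLRX1, a mitochondrial regulator of MAVS, had a log2 fold change of -0.02 (edgeR adjusted p = 0.763), with either sign among the alternatives.

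Among 18 other nucleic acid sensors, 13 were tested, 9 were lower and 3 higher, with a median log2 fold change of -0.32. OAS2, which makes a nucleotide messenger in response to double-stranded RNA, fell from 4.37 to 1.08 CPM (log2 fold change -2.01, edgeR adjusted p = 1.28e-05), and IFI16, a DNA sensor, fell from 14.6 to 8.96 CPM (log2 fold change -0.71, edgeR adjusted p = 3.40e-05). The lower genes also included OAS1 and OAS3, named here after their values were seen, and the 3 higher ones were DDX41, DDX1 and NLRP1. Of 15 nucleases and enzymes that limit the ligands, 8 were lower and 3 higher, with a median of -0.12. ADAR, which edits double-stranded RNA, fell from 258.3 to 218.8 CPM (log2 fold change -0.24, edgeR adjusted p = 1.05e-05). TREX1, the nuclease that removes cytosolic DNA, was at 7.26 and 5.63 CPM and did not pass (log2 fold change -0.36, edgeR adjusted p = 0.0514), and its transcripts share 89.2% of their 31-base words with other genes.

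Among 13 partners and regulators of PKR, 5 were higher and 2 lower, with a median log2 fold change of 0.04. PRKRA, the protein activator of PKR, rose from 29.9 to 34.5 CPM (log2 fold change 0.21, edgeR adjusted p = 0.00244), while EIF2S1, the substrate eIF2α, was at 88.6 and 85.7 CPM (log2 fold change -0.05, edgeR adjusted p = 0.246). EIF2AK3, which encodes the endoplasmic reticulum kinase PERK that acts on the same substrate, rose from 26.1 to 66.3 CPM (log2 fold change 1.35, edgeR adjusted p = 2.26e-08). PPP1R15A, which encodes the phosphatase subunit GADD34 that reverses the phosphorylation, rose from 28.4 to 66.4 CPM (log2 fold change 1.22, edgeR adjusted p = 9.54e-08). The mRNAs of PKR and PERK thus moved in opposite directions. The related kinase genes EIF2AK1 and EIF2AK4, named here after their values were seen, did not pass. Their log2 fold changes were 0.04 (edgeR adjusted p = 0.143) and -0.08 (edgeR adjusted p = 0.0848).

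Interferons themselves were at or near the limit of detection. Of 21 interferon ligand genes, 12 had no count in any library, 18 had at most 3 counts in every library, and the highest count of all was 30. Only IFNE passed the filter, and its log2 fold change of -0.42 did not pass the threshold (edgeR adjusted p = 0.143). IFNB1, the gene of interferon beta, had 3, 1 and 0 counts in untreated libraries and 2, 6 and 2 in treated ones. IFNL1, a type III interferon, had 2, 2 and 1 and then 2, 3 and 0 counts. No difference in either was detectable at this depth.

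Of 9 genes of the interferon receptors and ISGF3, 3 were higher, 3 lower and 3 did not pass, with a median log2 fold change of -0.01. The ISGF3 components STAT2 and IRF9 did not pass. STAT2 was at 66.7 and 68.1 CPM (log2 fold change 0.03, edgeR adjusted p = 0.440) and IRF9 was at 11.0 and 10.3 CPM (log2 fold change -0.10, edgeR adjusted p = 0.328).

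Among 22 direct target genes of IRF3 and ISGF3, 21 were tested, 17 were lower and 4 were higher, with a median log2 fold change of -0.78 beside 0.00 for all genes. Over all genes tested, 25.4% were lower and 26.2% were higher. IFIT1, which binds viral RNA ends, fell from 41.0 to 13.9 CPM (log2 fold change -1.56, edgeR adjusted p = 2.96e-09). OASL fell from 51.2 to 17.7 CPM (log2 fold change -1.53, edgeR adjusted p = 1.18e-08). ISG15, a ubiquitin-like modifier, fell from 26.9 to 15.7 CPM (log2 fold change -0.78, edgeR adjusted p = 1.53e-06), and BST2, which tethers budding virus, fell from 11.2 to 5.10 CPM (log2 fold change -1.13, edgeR adjusted p = 2.90e-05). The 4 higher genes were ISG20, MX2 and the chemokine genes CXCL10 and CXCL11. CXCL10 had 6, 2 and 3 counts in untreated and 69, 118 and 116 counts in treated libraries. CXCL10 and CXCL11 passed the filter on low counts only through the treated libraries, where they were high. Whether they were tested at all thus depended on those libraries, and no fold is given. With at least 10 counts required in every library, 2 targets were higher, ISG20 and MX2. Of the 18 targets with a RefSeq promoter, 18 held the IRF word and 16 the longer core, beside 22.8% and 3.57% of all promoters. The list was written as genes on which IRF3 and ISGF3 act directly. Such words were therefore to be found in it whatever Y-320 did, and they add no support to the lower values.

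**Figure D4:**
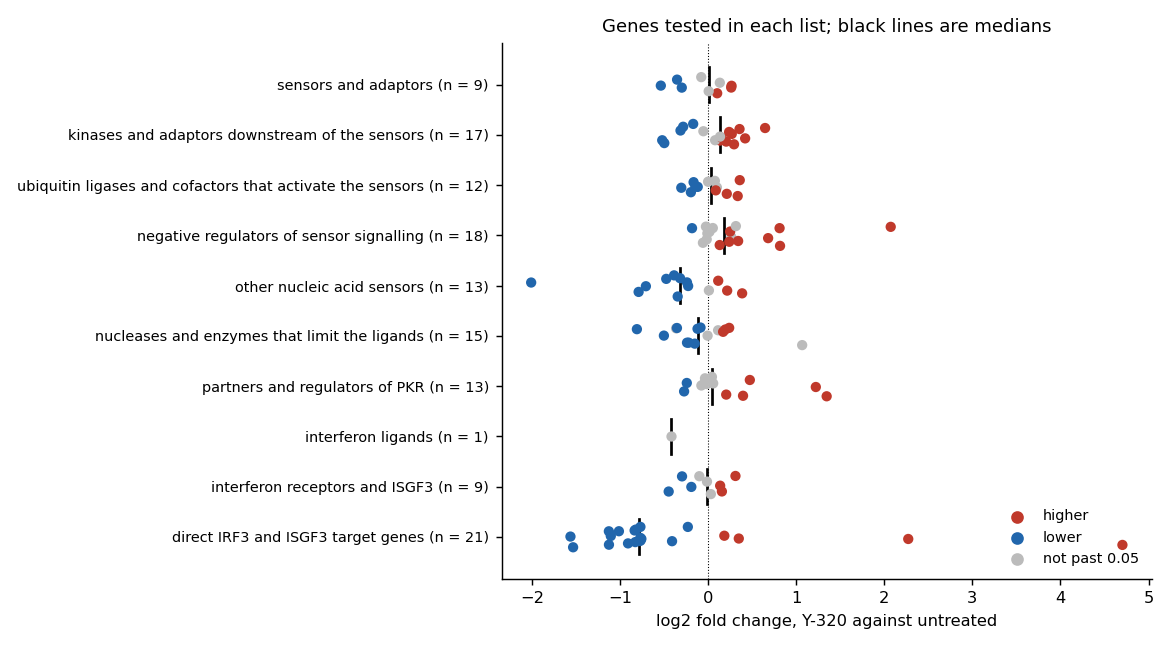
Log2 fold change with Y-320 of each tested gene, as a point (red higher, blue lower, grey not past the threshold), in the sensors and adaptors and the 9 pathway lists, with a line at each list's median. The medians lie at 0.01 for the sensors and adaptors, 0.14 for downstream kinases and adaptors, 0.19 for negative regulators, -0.32 for the other nucleic acid sensors and -0.78 for IRF3 and ISGF3 targets.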

How the data were processed

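RNA of HDQ-P1 cells, 3 libraries untreated and 3 treated with Y-320, was extracted by the authors, made into Illumina libraries and sequenced. The authors deposited estimated counts per Ensembl gene, without normalization, and the submitters' processing notes name kallisto 0.46.1 and hg38. The Ensembl release, the strand setting and how transcripts were summed to genes are not given in the sources used here. Of the values, 40.1% were not whole (tolerance 0.001), because kallisto splits a read among all transcripts it matches, so counts of genes with close copies are less certain.

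Counts were rounded to whole numbers, and 35390 of 40295 identifiers were matched to gene names, the rest holding 3.21% to 3.47% of the counts. Groups came from the sample titles. edgeR 4.0.16 in R 4.3.3 kept genes by filterByExpr (at least 10 counts, and 15 summed over libraries), scaled by TMM and fitted the quasi-likelihood model without a block, two-sided, with Benjamini-Hochberg adjustment over all genes tested. After the main fit, the same procedure was also run on simulated counts, with means and dispersions taken from these libraries. Exact permutation tests were two-sided and used scipy 1.17.1, and figures used matplotlib 3.10.9. Gene positions, lengths and shared 31-base words came from GENCODE 44, and promoters from RefSeq.

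Alternatives were library size and upper-quartile scaling, no filter, at least 10 counts in every library, a replicate block, unrounded counts, DESeq2 1.42.0, limma-voom (limma 3.58.1), each library left out, an adjusted p under 0.01 and a log2 fold change of at least 0.5. For the promoters a shorter window was tried, and for levels merged exons as length. The 10 genes, the 9 pathway lists and the 3 marker lists were written with earlier results of these data known. The rule for naming genes takes the 10 genes, pathway genes whatever their values (TBK1, IKBKE, TICAM1, TRAF3, TRIM25, NLRX1, IFI16, TREX1, ADAR, PRKRA, EIF2S1, IFNB1, IFNL1, STAT2, IRF9, IFIT1 and ISG15) and, in each list, at most the 4 largest log2 fold changes of at least 1 in size among called genes that average 1 CPM or more. A few of the genes it takes are left out of the text but stay in the list counts. Any other gene named completes a count or was chosen after its values were seen.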

Additional observations from a re-analysis of the deposited data

How the results depend on the processing

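Of the 126 log2 fold changes of the sensors and adaptors under 14 alternatives, 118 kept their sign and their side of the threshold. RIGI, TLR3, EIF2AK2, CGAS and STING1 passed in all 14. MAVS lost its call in 3 of them, with log2 fold changes of 0.07 with upper-quartile scaling, 0.07 without untreated replicate 3 and 0.10 without treated replicate 2. Near 0, the sign turned for DHX58 without treated replicate 2 (range with each library left out -0.17 to 0.038), and for IRF3 with upper-quartile scaling (-0.022) and without untreated replicate 2, treated replicate 1 or treated replicate 3 (range -0.017 to 0.046). For NLRX1 it turned without untreated replicate 3 or treated replicate 3 (range -0.067 to 0.032). The cause was not tested.

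A log2 fold change of at least 0.5 left 1400 genes higher and 1207 lower over all genes, and 0 higher and 1 lower (RIGI) among the sensors and adaptors, since fewer genes reach that size. Of the 9 higher downstream kinases and adaptors, DESeq2 called 5. Of the 4 higher IRF3 and ISGF3 targets, 2 were left with at least 10 counts in every library, a filter that CXCL10 and CXCL11 could not pass. The 5 lower ubiquitin ligases and cofactors became 3 with DESeq2 and 2 to 3 when a library was left out. The 1 lower negative regulator became 2 with upper-quartile scaling and 0 to 1 when a library was left out, with 0 without untreated replicate 2, treated replicate 1 or treated replicate 3. The 2 lower PKR partners became 4 with upper-quartile scaling. Upper-quartile scaling shifted the median of all genes by -0.03 and library size scaling by 0.01 on the log2 scale.

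The groups share replicate numbers, but no sign was seen that these pair the libraries. The deviations of same-numbered libraries correlated at only -0.00236, 0.0155 and 0.00222, and those of different-numbered ones at -0.0439 to 0.0404. With 3 libraries in each group and all genes weighted alike, such correlations cannot exclude a pairing. With a replicate block 4285 genes were higher and 4159 lower over all genes, beside 4336 and 4210 without it, and the sensors and adaptors kept 3 higher and 3 lower. DESeq2 called 3405 higher and 3278 lower. Depth limits what can be said of IRF7, IFNB1 and IFNL1, where a few counts make up each value.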
